A study of Mus musculus with 12 samples.

Results

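Mammary glands of WAP-SVT/t transgenic mice were compared with mammary glands of NMRI mice without the transgene, both on day 1 of lactation. The comparison took the 6 samples whose titles name lactating glands, 3 of each genotype, from the 12 arrays of the series. All mice were females of the NMRI strain, and the labels state neither age nor any treatment. In WAP-SVT/t mice the SV40 T and t antigens are made in epithelial cells of the mammary gland, driven from the Wap promoter, so both groups shared strain and stage and differed in the transgene. Wap encodes a milk protein, so this promoter is itself active in lactation, and no probe set for the viral antigens was used here, so their level in each gland is not given. Of the other 6 arrays, 3 held WAP-SVT/t tumors and 3 held tumor-derived lines, which were not used. The tumors shared the estimate of the spread and are given for orientation. RNA came from frozen pieces of whole gland, so fewer cells of a type and less RNA per cell cannot be told apart.

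Described here are genes outside the lists of the cell cycle and the caseins: genes of secretion, transport, signalling and transcription. At the start of lactation the alveolar epithelium turns into a secretory tissue. Milk proteins and lactose leave it through the endoplasmic reticulum (ER), the Golgi and secretory vesicles, milk fat buds off in membrane-bound globules, and pumps and carriers move calcium, zinc, phosphate, sugars and vitamins into milk. Prolactin, acting through its receptor, the kinase JAK2 and the factor STAT5, drives this program together with factors such as ELF5, while XBP1 and MIST1 (the product of Bhlha15) are known to expand the secretory machinery in gland cells. Large T antigen binds the RB and p53 proteins, and RB normally holds back the E2F factors that switch on genes of DNA replication.

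Values are scaled array signals (intensity units), given for glands 1 to 3 in the order of the labels. Differences are log2 of transgenic over NMRI glands, ± standard error, from limma over n = 3 glands a group, and a gene passed at a Benjamini-Hochberg adjusted p under 0.05. Signals under 57.5 were raised to this floor before the fit. The labels number the samples but do not state that each came from a separate mouse, so the p-values measure the spread between these samples.

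The labelled tissue held its defining markers. The 10 markers of lactating alveolar epithelium had a mean log2 signal of 13.44 to 13.66 in NMRI glands and 11.96 to 12.5 in transgenic glands, none was at the floor in every gland of a group, and 5 of the 10 fell. The 17 luminal markers lay at 10.12 to 10.88 and 10.03 to 10.38. Skeletal muscle markers (24, none at the floor in all glands of a group) stood at 9.82, 8.86 and 9.32 in NMRI glands 1 to 3 and at 6.55, 6.62 and 9.70 in transgenic glands 1 to 3, so that transgenic gland 3 lay among the NMRI glands. Of the 21 macrophage and myeloid markers tested 3 rose (Aif1, Mpeg1 and C1qb), and their list stood at 7.94 to 8.38 in NMRI and 8.37 to 9.29 in transgenic glands. Of the 6 T and NK cell markers tested 3 fell (Gzma, Gzmb and Il2rb), with list levels of 6.86 to 7.13 and 6.27 to 7.37. B and plasma cell markers lay between 6.97 and 7.55 in 5 glands and at 8.70 in transgenic gland 2. The ratio of 3-prime to 5-prime Gapdh signal, a control of RNA integrity, was 12.9, 2.28 and 40.3 in NMRI glands and 10.7, 2.49 and 22.5 in transgenic glands, and thus followed the gland's number more than its genotype. With the muscle level as a covariate, 30 of the 37 secretion genes and 23 of the 29 transport genes described below as lower still passed. With the Gapdh ratio as a covariate in its place, all 114 named genes with alternatives kept their side of the threshold. Those that passed also kept their direction. Fibroblast and matrix markers (23 tested, of which Pdgfrb rose and none fell) stood at 9.84, 9.41 and 9.60 in NMRI glands and at 9.83, 10.26 and 10.38 in transgenic glands, and 95.65% of them had a positive difference. The part of macrophages, lymphocytes and fibroblasts in single results was not tested.

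**Figure D1:**
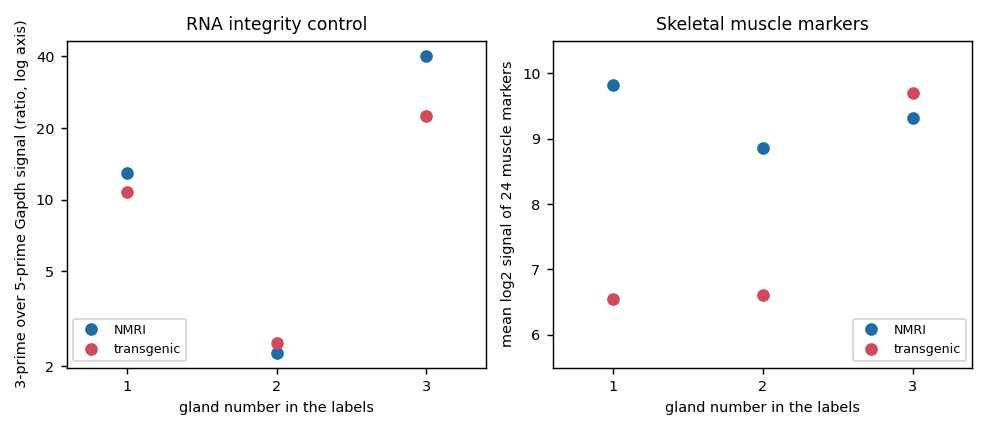
Ratio of 3-prime to 5-prime Gapdh signal (left, log axis) and mean log2 signal of 24 skeletal muscle markers (right) in each of the 3 NMRI and 3 transgenic glands, by gland number. Gland 2 had the lowest Gapdh ratio in both groups (2.28 and 2.49), and transgenic glands 1 and 2 had the lowest muscle levels (6.55 and 6.62).

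Most of the secretion and transport genes that passed were lower in transgenic glands, while signalling genes and transcription factors that passed went in both directions. Of 7898 genes tested, 478 (6.05%) rose and 318 (4.03%) fell in transgenic glands, and the 3 glands of one group lay clear of the 3 of the other in 2455 (31.1%). With the authors' signals left unscaled, the split was 584 higher and 236 lower, and the median of all genes lay at 0.11 in place of 0.01. Outside the cell cycle and casein lists 309 genes rose and 316 fell, 251 and 265 of them by at least 2-fold. With the gland number as a replicate block, 502 rose and 508 fell. Without NMRI gland 1 the counts were 132 and 113, and without NMRI gland 2 they were 145 and 128. Without transgenic gland 1, 191 rose, and without NMRI gland 3, 206 fell.

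The 6 secretion lists held 285 tested genes, of which 37 (13%) fell and 3 rose, with a median difference of -0.38. The 4 transport lists held 250 tested genes, of which 29 (11.6%) fell and 4 rose, with a median of -0.40. Among 527 signalling genes 16 rose and 13 fell, and among 393 transcription factors and chromatin regulators 14 rose and 11 fell. These shares, 3.04% and 2.47% for signalling and 3.56% and 2.8% for transcription factors, were below those of all genes. Their medians were 0.02 and 0.08. Of the 260 cell cycle genes that were set aside, 236 were tested, of which 169 rose and 1 fell.

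**Figure D2:**
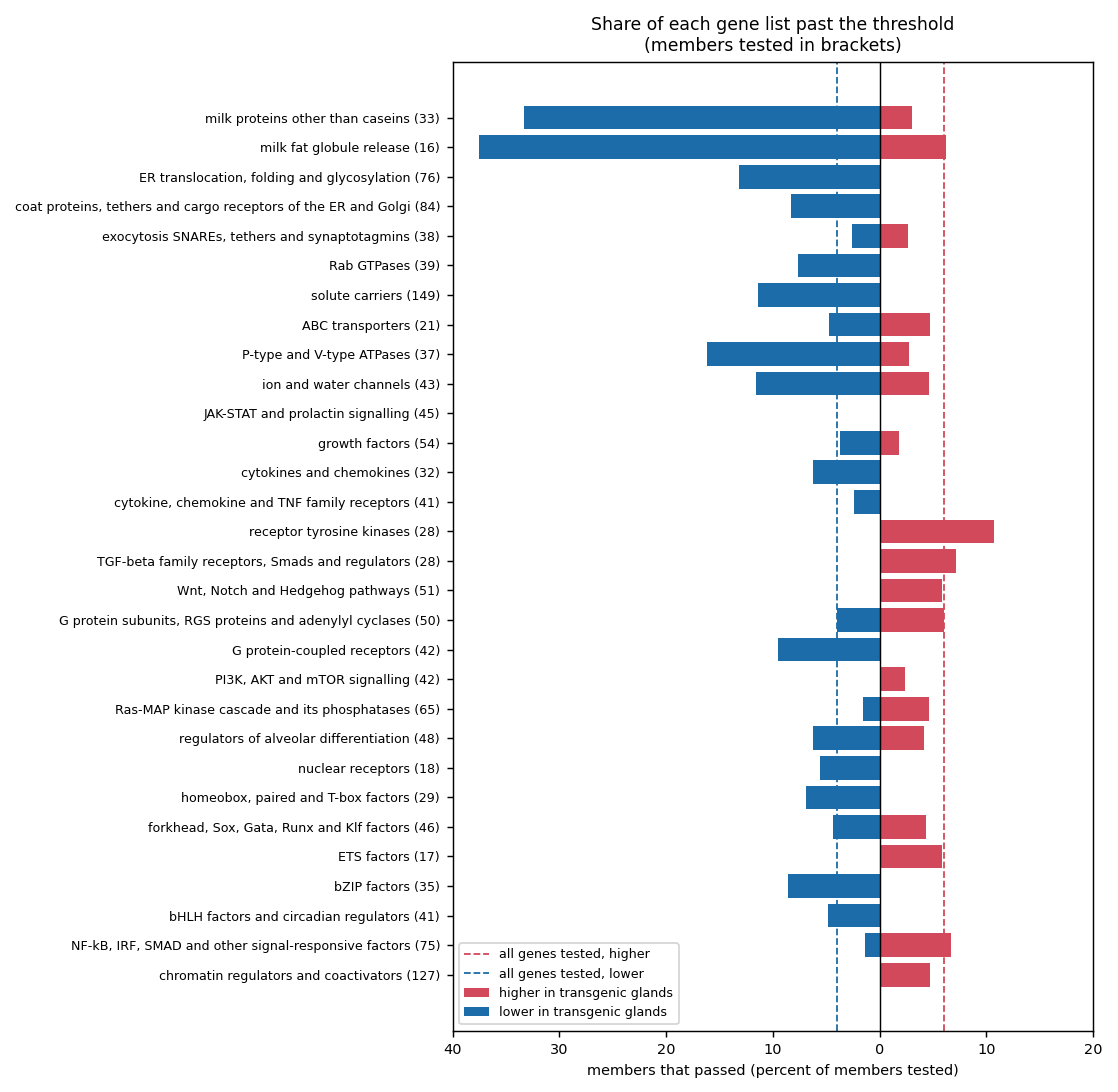
Percent of the tested members of the gene lists described that were higher (right, red) or lower (left, blue) in transgenic glands. Dashed lines mark the same shares over all genes tested, 6.05% and 4.03%. The longest blue bars are those of milk fat globule release (6 of 16) and milk proteins other than caseins (11 of 33).

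The promoters of genes that moved were searched on both strands, from 250 bases before to 50 bases after each start in RefSeq (GRCm38.p6), for the motifs of E2F and STAT factors, the E-box and the sterol response motif. The E2F motif (TTTCCCGC or TTTGGCGC) stood in 3.07% of the 8283 promoters of 6409 tested genes that matched. It stood in 13.8% of the 159 promoters of cell cycle genes that rose, in 7.97% of the 301 promoters of other genes that rose, and in 1.5% of the 334 promoters of other genes that fell. The STAT motif (TTCNNNGAA) stood in 6.57% of all promoters, 7.97% of those of other genes that rose, and 8.68% of those of other genes that fell. Of the 62 promoters of secretion and transport genes that fell, 7 (11.3%) held the STAT motif, 11 (17.7%) the E-box CACGTG (10% of all promoters) and none the sterol response motif TCACNCCAC (1.15% of all). A match is a description of the letters and not of binding. Stretches of 120 bases upstream of the start are shown for the 3 largest rises outside the lists with an E2F motif there and for the 3 largest falls among secretion and transport genes with a STAT motif there, with the motif on either strand in capitals. They are Syce2 (chr8:84872138-84872257, plus strand), D17H6S56E-5 (chr17:35000748-35000867, minus strand), Nop58 (chr1:59684868-59684987, plus strand), Glycam1 (chr15:103565137-103565256, minus strand), Edem2 (chr2:155729552-155729671, minus strand) and Orai1 (chr5:123014837-123014956, plus strand).
Syce2: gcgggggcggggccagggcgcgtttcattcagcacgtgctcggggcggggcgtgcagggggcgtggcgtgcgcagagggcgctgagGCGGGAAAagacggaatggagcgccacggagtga
D17H6S56E-5: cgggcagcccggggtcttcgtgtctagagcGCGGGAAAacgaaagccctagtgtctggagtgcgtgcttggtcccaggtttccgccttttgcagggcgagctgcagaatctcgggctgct
Nop58: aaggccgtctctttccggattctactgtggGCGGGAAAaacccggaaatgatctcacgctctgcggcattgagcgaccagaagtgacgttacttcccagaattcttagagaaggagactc
Glycam1: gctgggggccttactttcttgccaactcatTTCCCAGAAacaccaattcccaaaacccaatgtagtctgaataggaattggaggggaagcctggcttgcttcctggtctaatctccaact
Edem2: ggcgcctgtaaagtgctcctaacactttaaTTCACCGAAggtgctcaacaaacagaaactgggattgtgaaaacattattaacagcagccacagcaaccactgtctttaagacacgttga
Orai1: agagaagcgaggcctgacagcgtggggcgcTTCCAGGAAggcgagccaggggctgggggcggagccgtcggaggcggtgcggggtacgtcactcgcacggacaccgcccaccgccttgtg
Syce2, a synaptonemal complex protein, rose from 115, 83.0 and 120 to 829, 556 and 686, and Nop58, a core protein of small nucleolar RNPs, from 160, 95.6 and 213 to 546, 610 and 455. D17H6S56E-5 rose 5.04-fold. The values of Glycam1, Edem2 and Orai1 are given below with their groups.

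Of 33 milk protein genes other than caseins, 11 fell and 1 rose, with a median difference of -0.92 (17 fell and 2 rose with the replicate block). The 1 counted as higher was Lyz1, for which no direction is given below. The falls ranged from near-loss of enzymes secreted into milk to a less than 2-fold fall of Lcn2. Cel encodes the bile salt-activated lipase of milk and had signals of 8918, 8290 and 10700 in NMRI glands against 131, 113 and 174 in transgenic glands. It fell by 6.08 ± 0.24 on the log2 scale (limma adjusted p = 3.48e-07), and the transgenic glands lay at 67.6-fold lower signal on average. Lao1, a secreted L-amino acid oxidase that makes hydrogen peroxide in milk, had 16100, 14710 and 13080 against 328, 184 and 213, a 62.2-fold difference. Pigr carries IgA across the epithelium into milk. It fell 8.61-fold, from 7610, 6192 and 7497 to 756, 551 and 1330. With the mean of all its probe sets in place of the brightest, the log2 difference of Pigr was -3.75 rather than -3.11.

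The whey proteins Lalba, Wap and Glycam1 fell as well. Lalba, the α-lactalbumin that directs the Golgi enzyme B4galt1 to make lactose, had 18610, 16700 and 13060 in NMRI glands and 4432, 1908 and 1278 in transgenic glands (7.21-fold, adjusted p = 0.00361). Wap, the whey acidic protein whose promoter also drives the transgene, had 16480, 16610 and 14800 against 6368, 3140 and 1603 (5.02-fold, adjusted p = 0.00348). Both were highest in transgenic gland 1 and lowest in transgenic gland 3, and neither overlapped the NMRI glands. Glycam1, a mucin-like protein of whey, had 19720, 19540 and 15220 against 4639, 2414 and 3749 (5.19-fold, adjusted p = 0.000274). Whether spots of such high signal were saturated in NMRI glands was not tested.

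Antimicrobial and binding proteins made up the rest of the list. Lcn2, which binds iron-laden siderophores, fell by 0.93 ± 0.25 (16030, 14570 and 14880 against 8265, 12050 and 5031), the calcium-binding Nucb2 4.88-fold, and the folate receptor Folr1 7.29-fold. The peroxidase Lpo and the defensin Defb1 fell to the floor in 2 and 1 of the transgenic glands, so their folds of 6.03 and 5.4 depend on the floor. The lysozyme probe set standing for Lyz1 rose by 0.98 ± 0.27, but another probe set of Lyz1 passed in the opposite direction, so no direction is given for it. Lcn2 and Lpo did not pass in 5 of the 6 fits that left out 1 gland (adjusted p up to 0.13 and 0.096), and Cel, Lao1, Pigr, Folr1, Lalba, Glycam1, Wap and Nucb2 passed in every one.

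Of 16 genes of milk fat globule release 6 fell and 1 rose, with a median of -0.62. Cidea, a lipid droplet protein needed for milk fat secretion, had 7812, 7456 and 2229 in NMRI glands and 350, 302 and 84.1 in transgenic glands, a log2 difference of -4.61 ± 0.59 (24.4-fold, adjusted p = 0.000558). NMRI gland 3 was the lowest of its group and transgenic gland 3 of its own. Xdh (xanthine oxidoreductase) and Btn1a1 (butyrophilin), partners in the coat of the globule, fell 3.82-fold and 3.7-fold. Btn1a1 had 11290, 10490 and 7873 against 3790, 1201 and 4050. Muc1, the apical mucin that covers the globule, fell 5.84-fold, from 3502, 4136 and 4223 to 1150, 957 and 280. Fabp3, the fatty acid binding protein of the lactating epithelium, had 12690, 7320 and 6920 against 5038, 895 and 723, with transgenic gland 1 close to the NMRI range. Rab18, a small GTPase on lipid droplets, fell 2.9-fold (9016, 4857 and 3879 against 2097, 1662 and 2004). Anxa2, an annexin at the plasma membrane, rose from 1121, 1464 and 1044 to 2165, 2364 and 2409 (0.95 ± 0.27, adjusted p = 0.0486). It lost its call without any single gland (adjusted p up to 0.15), Fabp3 without NMRI gland 1 or 2 or transgenic gland 2 or 3 (up to 0.11), and Btn1a1 without NMRI gland 1 or 2 or transgenic gland 2 (up to 0.1). Xdh, Cidea, Muc1 and Rab18 passed in every such fit. With averaged probe sets Anxa2 (0.35, adjusted p = 0.243) and Rab18 (-1.62, adjusted p = 0.108) did not pass, and with the muscle level as a covariate Btn1a1 did not (adjusted p = 0.066).

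Some genes of the early secretory pathway fell. Of 76 genes of ER translocation, folding and glycosylation, 10 fell, none rose, and 22.4% had a positive difference. Leaving out 1 gland gave between 2 and 6 lower genes, and the signals without scaling gave 6. The 10 were parts of the signal recognition particle receptor (Srpr and Srprb), of the translocon (Sec61a1, Sec63, Tram1 and Ssr4), the co-chaperone Dnajc1 and members of ER-associated degradation (Edem2, Syvn1 and Selenos). Ssr4, a subunit of the translocon-associated protein complex, had 7023, 6112 and 6111 against 2675, 1705 and 1490 (3.38-fold, adjusted p = 0.00104). Edem2, which trims mannose from misfolded glycoproteins, had 1120, 936 and 458 against 224, 297 and 90.6 (4.3-fold), with gland 3 lowest in both groups. Tram1, a membrane protein beside the translocon, fell 2.36-fold and Srpr 2.19-fold. Sec61a1, the channel itself, fell from 3107, 2626 and 2454 to 1693, 1650 and 1286 (1.77-fold, adjusted p = 0.0403). The difference of Ssr4 with averaged probe sets was -0.79 (adjusted p = 0.0441) in place of -1.76. Ssr4 and Srpr passed in every fit that left out 1 gland. Edem2 and Tram1 did not pass without NMRI gland 1 or 2 (adjusted p up to 0.064 and 0.068), and Sec61a1 did not pass without any single gland (up to 0.16).

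Of 84 genes of coats, tethers and cargo receptors between ER and Golgi, 7 fell, none rose and the median was -0.37. With the replicate block 13 fell and 1 rose, and leaving out 1 gland gave between 2 and 7 falls. Arfgap3, an activator of the GTPase activity of ARF1 on COPI vesicles, had 1110, 1617 and 1442 against 326, 260 and 203 (log2 difference -2.41 ± 0.25, adjusted p = 0.000122). Tmed3, a p24 cargo receptor, had 3637, 2894 and 3236 against 1295, 1225 and 1439, and Surf4, a cargo receptor for secreted proteins, 3083, 2534 and 2239 against 1339, 1165 and 879. The 3 transgenic glands of Tmed3 lay close together, all below 1500 where no NMRI gland was below 2894. The COPI subunit Arcn1, the TRAPP subunit Trappc3 and the KDEL receptor Kdelr1, which returns ER proteins from the Golgi, had log2 differences of -0.81 ± 0.20, -0.99 ± 0.27 and -0.73 ± 0.20. The last of the 7 was Creb3l1, a transcription factor described below that this list takes in. Creb3l1 is counted both among the secretion genes and among the transcription factors that fell. Arfgap3 and Tmed3 passed without any one gland, Surf4 did not without NMRI gland 1 (adjusted p = 0.065), and Kdelr1 did not without any single gland (up to 0.14).

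Late steps of secretion changed in few genes. Among 38 SNAREs, tethers and synaptotagmins, the plasma membrane SNARE Stx1a fell (580, 373 and 423 against 187, 168 and 158, adjusted p = 0.00426) and Stxbp3, a syntaxin-binding protein, rose (338, 409 and 537 against 697, 760 and 1102, adjusted p = 0.0424). Among 39 Rab GTPases 3 fell: Rab18, Rab4a of early endosomes (1419, 1351 and 1455 against 838, 532 and 587) and Rab15 of recycling endosomes (1354, 1905 and 1349 against 660, 932 and 486). Stx1a passed without any one gland. With averaged probe sets Stx1a (-0.63, adjusted p = 0.0855) and Stxbp3 (0.64, adjusted p = 0.103) did not pass, nor did Stxbp3 with the muscle level as a covariate (adjusted p = 0.0599). Stxbp3 did not in 5 of 6 fits without 1 gland and Rab15 and Rab4a in 4 (adjusted p up to 0.17, 0.097 and 0.068).

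**Figure D3:**
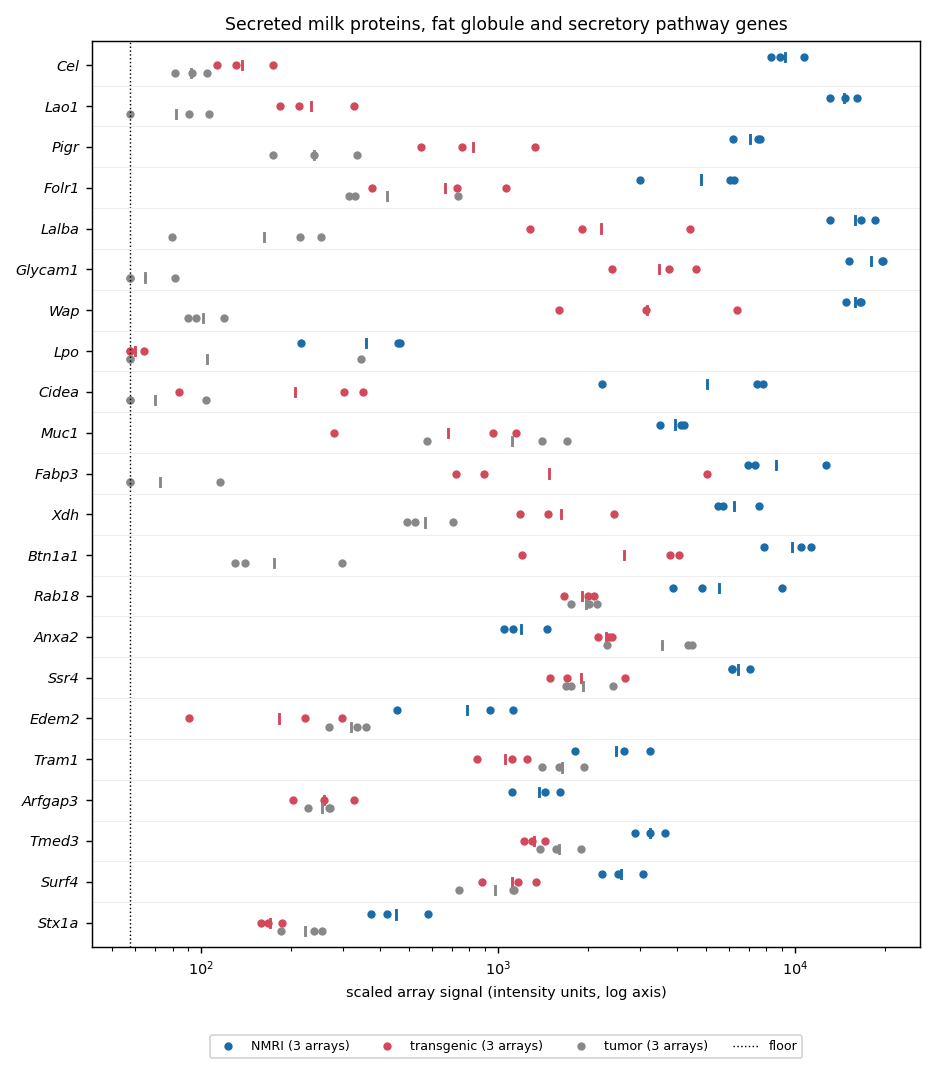
Scaled signal (log axis) of milk protein, fat globule and secretory pathway genes in the 3 NMRI glands (blue), 3 transgenic glands (red) and 3 tumors (grey). Points are arrays, ticks are means of the floored log2 values, and the dotted line is the floor of 57.5. Red points lie left of all blue points for each gene except Anxa2, where they lie right of them.

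Of 149 solute carriers 17 fell and none rose, with a median of -0.40 (28 fell and 3 rose with the replicate block, and 8 to 16 fell without 1 gland). Some of these 17 serve phosphate, magnesium, zinc, sugar, fatty acid and vitamin transport. Slc34a2, the sodium-phosphate cotransporter of the apical membrane, had 7865, 2591 and 2538 in NMRI glands and 381, 116 and 303 in transgenic glands (log2 difference -3.97 ± 0.51, 15.7-fold, adjusted p = 0.000592). Slc20a1, a second phosphate carrier, fell from 1487, 1234 and 977 to 364, 583 and 682 (adjusted p = 0.045). Slc41a3, of a family of magnesium carriers, had 4250, 4047 and 1140 against 215, 341 and 206, so that NMRI gland 3 stood below the others of its group and still above every transgenic gland.

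Members of the zinc carrier families were among those that fell. Slc39a8, which brings zinc and manganese into the cytosol, had 2258, 1809 and 1749 against 549, 281 and 592 (4.28-fold, adjusted p = 0.00562). Slc30a2, the vesicle carrier that loads zinc into milk, had 310, 225 and 157 against 64.2, 38.2 and 76, and its fold of 3.39 depends on the floor in transgenic gland 2. Slc39a11 fell 2.23-fold. Slc2a1, the glucose carrier GLUT1 that supplies lactose synthesis, had 1937, 719 and 1192 against 464, 289 and 423 (adjusted p = 0.0181), and Slc27a4, a fatty acid transport protein, had 722, 631 and 746 against 252, 220 and 276 (adjusted p = 0.011). The amino acid carrier family member Slc7a4 fell 2.54-fold, and the acetyl-CoA carrier Slc33a1 of the ER fell 2.21-fold. Slc7a4 lost its call without NMRI gland 1 or 2, Slc39a11 without NMRI gland 1 and Slc33a1 in 5 of the 6 fits that left out 1 gland (adjusted p up to 0.072, 0.066 and 0.14).

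Leaving out glands split this group. Slc34a2, Slc41a3, Slc39a8, Slc27a4 and Slc46a3 passed in every fit that left out 1 gland. Slc2a1 did not pass without NMRI gland 1 or transgenic gland 2 (adjusted p up to 0.079) and Slc30a2 without NMRI gland 1 or 2 or transgenic gland 1 or 2 (up to 0.13). Slc20a1 did not pass in 5 of the 6 fits (up to 0.17). With the muscle level as a covariate Slc30a2 and Slc20a1 did not pass either (adjusted p = 0.071 and 0.12). The differences of Slc41a3 and Slc39a8 with averaged probe sets were -1.25 in place of -3.45 and -1.45 in place of -2.10, and both passed.

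Of 37 P-type and V-type ATPases, 6 fell and 1 rose. Without 1 gland between 1 and 4 fell, and with averaged probe sets 3 fell. Atp2c2, the Golgi calcium pump SPCA2, had 2749, 1931 and 1876 in NMRI glands and 431, 149 and 210 in transgenic glands (log2 difference -3.18 ± 0.40, 9.04-fold, adjusted p = 0.000522). Its relative Atp2c1 (SPCA1) fell 2.03-fold, from 1786, 1573 and 1990 to 831, 746 and 1083. Atp2b2 encodes PMCA2, the main plasma membrane calcium pump of the lactating gland. It had 1248, 201 and 224 against 37.5, 37.1 and 7.81, all transgenic glands at the floor, and was at least 6.66-fold lower (adjusted p = 0.0113). It was not tested in the fits without 1 NMRI gland or with averaged probe sets, since too few arrays stayed above the filter. Its difference rests on 1 of its 3 probe sets. Atp1b1, the β subunit of the sodium-potassium pump, had 578, 552 and 740 against 2158, 1630 and 1395 (rise of 1.46 ± 0.27, adjusted p = 0.00597) and passed without any one gland. The other 3 that fell were subunits of the vacuolar proton pump, Atp6v0d1, Atp6v0a2 and Atp6v1g1, with log2 differences of -0.99, -0.80 and -0.71. Atp2c2 passed without any one gland, while Atp2c1 did not without NMRI gland 1 or 3 or transgenic gland 1 or 2 (up to 0.06), nor with averaged probe sets (-0.51, adjusted p = 0.299).

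Of 177 ion and water channels with a probe set 43 were bright enough to be tested. Of these 5 fell and 2 rose, with a median of -0.54 (8 and 3 with the replicate block). Gjb6, the gap junction protein connexin 30, had 846, 904 and 859 against 30.1, 37.7 and 50.3, all under the floor, and was at least 15.1-fold lower (adjusted p = 3.06e-06). Gjb6 and Aqp3 passed the filter on dim genes only through the 3 NMRI glands, so they could enter only as lower. Neither was tested in the fits without 1 NMRI gland. With averaged probe sets Aqp3 was not tested either, so its difference rests on 1 of its 3 probe sets. Aqp3, a channel for water and glycerol, had 2036, 322 and 392 against 83.9, 64.1 and 77.8, with NMRI gland 1 far above its group. Orai1, the store-operated calcium channel of the basolateral side, had 1376, 1514 and 692 against 451, 444 and 158 (3.57-fold, adjusted p = 0.0281), with gland 3 lowest in both groups. The potassium channels Kcnk5 and Kcnq1 fell 3.52-fold and 3.07-fold, Kcnq1 with 2 transgenic glands at the floor. Panx1 (88.1, 96.5 and 82.7 against 226, 210 and 210) and Trpc2 (58, 45.9 and 55.3 against 114, 183 and 171) rose from signals near the floor. Orai1 did not pass without NMRI gland 1 or 2 or transgenic gland 3 (adjusted p up to 0.11), Kcnk5 and Kcnq1 did not in 5 of the 6 fits (up to 0.18 and 0.15), and Panx1 did not without any single gland (up to 0.15). With the muscle level as a covariate Panx1 (adjusted p = 0.0962) and Kcnk5 (adjusted p = 0.085) did not pass.

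The ABC transporter Abcg2, which moves riboflavin and many drugs into milk, had 4413, 3415 and 2231 in NMRI glands and 861, 460 and 776 in transgenic glands (4.78-fold lower, adjusted p = 0.00735). Abcc3, an exporter of conjugated organic anions, had 57.9, 17.8 and 116 against 171, 234 and 272 and rose by 1.61 ± 0.34, a size that depends on the floor in NMRI gland 2. The other 19 of the 21 tested ABC transporters did not pass. Abcg2 passed without any one gland, and Abcc3 did not without NMRI gland 1 or 2 (adjusted p up to 0.065).

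Uptake of vitamin B12, folate, iron and carnitine was grouped after these results were seen, and 7 of 14 tested genes fell, none rose and the median was -0.96. They were Folr1, the transcobalamin receptor Cd320 (966, 1207 and 472 against 240, 229 and 113), transcobalamin Tcn2 (1281, 1778 and 1402 against 552, 723 and 422), the transferrin receptor Tfrc (3776, 2248 and 3670 against 1545, 533 and 760), the metalloreductase relative Steap1 (7.11-fold), ferritin heavy chain Fth1 (1.93-fold) and the multivitamin carrier Slc5a6 (2.71-fold). Of these Fth1 lost its call without NMRI gland 2. Slc5a6 was not tested in the fits without 1 NMRI gland. In a similar group of 18 Golgi sugar transferases 3 fell. B4galt1, the enzyme that α-lactalbumin turns into lactose synthase, had 5250, 3681 and 4821 against 3057, 1548 and 582 (3.24-fold, adjusted p = 0.0464), and the sialyltransferase St6gal1 fell 4.56-fold. The third, St3gal1, fell 2.41-fold. B4galt1 did not pass in 5 of the 6 fits without 1 gland, and St6gal1 passed in all.

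**Figure D4:**
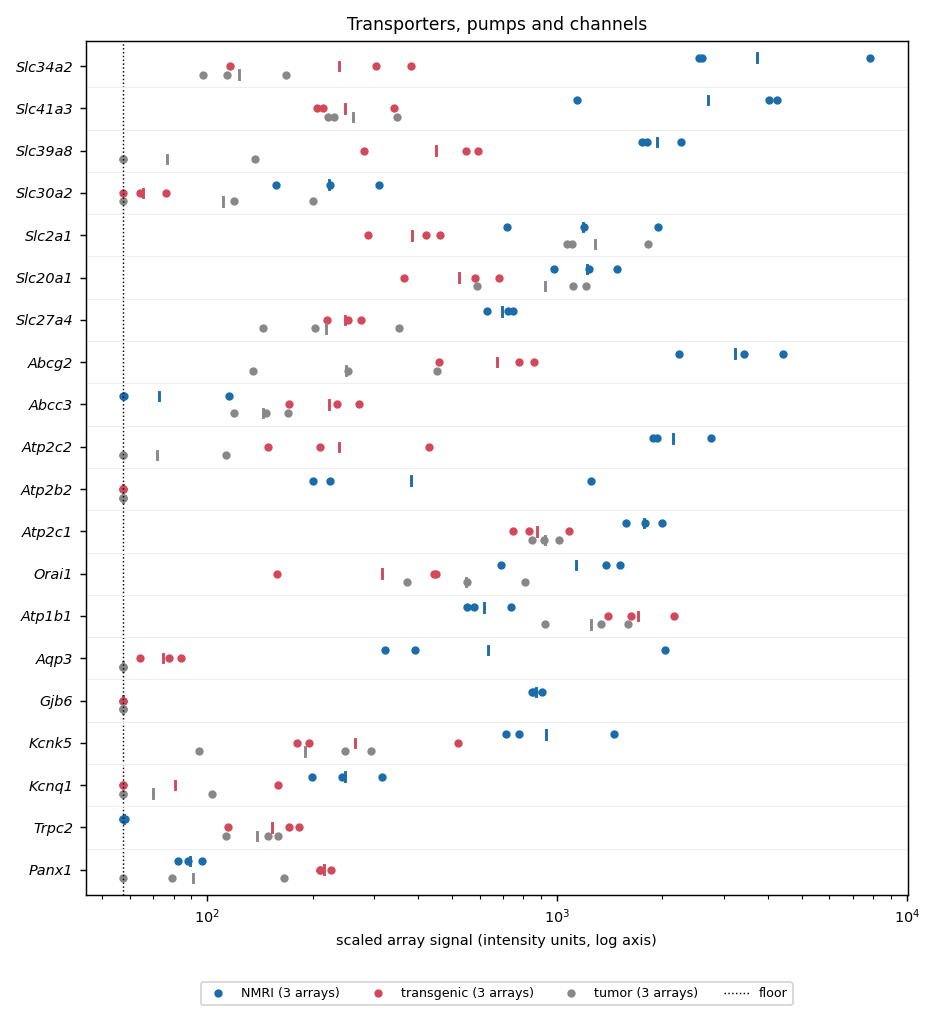
Scaled signal (log axis) of carriers, pumps and channels in the 3 NMRI glands (blue), 3 transgenic glands (red) and 3 tumors (grey). Points are arrays, ticks are means of the floored log2 values, and the dotted line is the floor of 57.5. All red points of Gjb6 and Atp2b2 lie at the floor, and red points of Atp1b1, Abcc3, Trpc2 and Panx1 lie right of the blue ones.

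Signalling genes were described from ligands inward. With the muscle level as a covariate 12 of the 16 that rose and 10 of the 13 that fell still passed, and the others were Ccn1, Notch1, Arrb1, Arrb2, Il2rb, Drd4 and Gpr180. Of 54 growth factors tested 2 fell and 1 rose (5.56% in either direction, beside 6.05% of all genes that rose and 4.03% that fell). Egf, the epidermal growth factor that is abundant in milk, had 440, 256 and 194 in NMRI glands and 82.2, 94.3 and 115 in transgenic glands (2.91-fold lower, adjusted p = 0.0142). Fgf1 fell by 0.93 ± 0.23 on the probe set that stood for it, but with the replicate block another of its 2 probe sets stood for it and the difference was -0.24 (adjusted p = 0.54). Averaging probe sets also ended the calls of Fgf1 (-0.59, adjusted p = 0.12) and Il2rb (-0.71, adjusted p = 0.0743). Ccn1, a matricellular growth regulator, rose from 108, 349 and 133 to 407, 758 and 363, with gland 2 highest in both groups. Of 32 cytokines and chemokines 2 fell (6.25%). Cxcl17, a chemokine of mucosal surfaces, had 1361, 1230 and 2245 against 277, 316 and 305 (5.2-fold, adjusted p = 0.000429), and Il15, which sustains NK cells and some T cells, had 790, 190 and 481 against 78.5, 86.3 and 90.3 (4.9-fold, adjusted p = 0.00643). The NK and T cell receptor chain Il2rb, through which IL-15 signals, fell from 256, 319 and 260 to 54.9, 177 and 114. Beside this, the NK and cytotoxic T cell granule genes Gzma (428, 358 and 492 against 93, 122 and 157) and Gzmb (200, 151 and 230 against 64.2, 24.1 and 46.7) fell as well. Il2rb, Gzma and Gzmb are the 3 of 6 tested T and NK cell markers that fell, and 33.3% of the 6 had a positive difference. The whole list stood at 6.86, 6.92 and 7.13 in NMRI glands and at 6.27, 7.37 and 6.51 in transgenic glands, so transgenic gland 2 lay above every NMRI gland. The part of the number of such cells was not tested. Cxcl17 passed without any one gland, Ccn1 did not in 4 of the 6 fits (adjusted p up to 0.19, and 0.116 with the muscle level as a covariate), Il2rb did not in 5 (up to 0.15, and 0.0639 with the muscle level) and Egf did not without transgenic gland 1 (0.052). Egf and Il15 were not tested without 1 NMRI gland.

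None of 45 tested genes of JAK-STAT and prolactin signalling passed in limma's fit (9 of the 45 lay clear between groups, 20% against 31.1% of all genes), and their median difference was -0.03. With the replicate block 3 fell and 1 rose. Stat5a had 1820, 1094 and 618 in NMRI glands and 968, 562 and 410 in transgenic glands, lower at each gland number though the groups overlapped. Its difference was -0.82 ± 0.40 (limma adjusted p = 0.219). The adjusted p was 0.0381 with the replicate block, which takes equal numbers as pairs though the labels name none. Stat5b had 485, 418 and 458 against 707, 393 and 410 (0.10 ± 0.27). Of the STAT5 targets that act as feedback inhibitors, Cish stood at 951 ± 99.7 against 668 ± 47.6 (SD, n = 3, adjusted p = 0.169) and Socs2 at 144 ± 37.6 against 220 ± 79.2 (adjusted p = 0.529). The prolactin receptor Prlr and the estrogen and progesterone receptors Esr1 and Pgr were not among the genes tested.

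Of 28 receptor tyrosine kinases 3 rose (10.7%, beside 6.05% of all genes) and none fell. They were Fgfrl1, an FGF receptor without a kinase domain (104, 168 and 169 against 387, 337 and 361, adjusted p = 0.00978), Pdgfrb of pericytes and fibroblasts (143, 121 and 193 against 319, 338 and 379) and Ephb3 (20.6, 61.5 and 13.1 against 133, 173 and 140), which was at the floor in 2 NMRI glands. Egfr had 772, 648 and 1345 against 615, 579 and 588 (-0.56 ± 0.27, adjusted p = 0.22), Erbb3 differed by 0.10 ± 0.43 and Igf1r by -0.26 ± 0.39. Fgfrl1 passed without any one gland, while Pdgfrb did not without NMRI gland 1 or 2 (adjusted p up to 0.079) or with averaged probe sets (0.82, adjusted p = 0.0584). Pdgfrb is one of the fibroblast and matrix markers whose levels are given above, and the part of such cells was not tested. Ephb3 did not without these or transgenic gland 2 (up to 0.064).

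In the Notch, Wnt and Hedgehog list 3 of 51 rose (5.88%) and none fell, and in the TGF-beta list 2 of 28 rose (7.14%). Of all genes 6.05% rose. Notch1 had 214, 367 and 404 in NMRI glands and 1400, 1034 and 488 in transgenic glands (2.81-fold, adjusted p = 0.0365), so that transgenic gland 3 stood close to the NMRI range. Notch2 had 202, 232 and 293 against 540, 478 and 442 (adjusted p = 0.0145). Tle3, a Groucho corepressor, rose 2.22-fold. Ltbp2 and Ltbp3, of the family named latent TGF-beta binding proteins, both rose. Ltbp2 went from 166, 139 and 183 to 205, 631 and 559 and Ltbp3 from 927, 489 and 682 to 1274, 2062 and 2046, each lowest of its group in transgenic gland 1. The fibroblast and matrix markers were also lowest of their group there (9.83 against 10.26 and 10.38), and their part in these rises was not tested. With averaged probe sets neither list had a gene that rose: Notch1 differed by 0.83 (adjusted p = 0.0876), Notch2 by 0.40 (adjusted p = 0.185), Tle3 by 0.62 (adjusted p = 0.12), Ltbp2 by 1.36 (adjusted p = 0.0509) and Ltbp3 by 0.77 (adjusted p = 0.144). With the muscle level as a covariate the difference of Notch1 was 0.94 (adjusted p = 0.0877). The 5 genes lost their calls in 3 to 5 of the 6 fits that left out 1 gland (adjusted p up to 0.074 for Notch2, 0.12 for Tle3, 0.14 for Ltbp2 and Ltbp3 and 0.15 for Notch1).

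In the list of G protein subunits, RGS proteins and adenylyl cyclases 3 of 50 rose and 2 fell. That is 10% in either direction, beside 6.05% of all genes that rose and 4.03% that fell. In the receptor list 9.52% fell. The list of G protein-coupled receptors had 4 falls among 42 tested: the prostaglandin E receptor Ptger2 (377, 510 and 523 against 186, 191 and 193), the dopamine receptor Drd4 (2.24-fold), the orphan Gpr180 (2.11-fold) and Htr3a (748, 716 and 521 against 220, 276 and 237), which is a serotonin-gated channel that the name pattern of the list takes in. Both β-arrestins, which uncouple active receptors, rose. Arrb1 had 191, 215 and 181 against 528, 439 and 422 and Arrb2 145, 213 and 210 against 347, 586 and 359. The anchoring protein Akap8 rose 2.05-fold. Adcy9, an adenylyl cyclase, and Rgs11, which speeds up GTP hydrolysis by G proteins, fell 2.07-fold and 2.31-fold, Rgs11 with 1 transgenic gland at the floor. Htr3a passed without any one gland, and Ptger2 and Akap8 did not without NMRI gland 2 (adjusted p = 0.059 and 0.074). Gpr180 and Rgs11 did not in 5 of the 6 fits and Drd4 without transgenic gland 1 or 2 (up to 0.12, 0.17 and 0.12). Drd4 was not tested in the fits without 1 NMRI gland or with averaged probe sets. With averaged probe sets Arrb2 (1.13, adjusted p = 0.0536), Akap8 (0.62, adjusted p = 0.103) and Adcy9 (-0.65, adjusted p = 0.109) did not pass, and with the muscle level as a covariate Arrb1, Arrb2, Drd4 and Gpr180 did not (adjusted p of 0.0575, 0.0663, 0.0889 and 0.074). Without 1 gland, Arrb1, Arrb2 and Adcy9 did not pass in 6, 3 and 6 of the 6 fits (up to 0.1, 0.11 and 0.13).

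In the Ras-MAP kinase list 3 of 65 rose and 1 fell (6.15% in either direction, beside 6.05% of all genes that rose and 4.03% that fell). Egr1, an immediate early transcription factor of this cascade, had 386, 830 and 1133 in NMRI glands and 1873, 3221 and 4068 in transgenic glands (rise of 2.03 ± 0.41, 4.07-fold, adjusted p = 0.0103). The order of the glands was the same in both groups, gland 1 lowest and gland 3 highest, and the adjusted p with the replicate block was 0.0009. Spred1, an inhibitor of Ras signalling, rose from 132, 134 and 190 to 284, 337 and 428, and the kinase Rps6ka3 (RSK2) 1.99-fold. Dusp26, a phosphatase, fell 2.53-fold to near the floor. In the PI3K, AKT and mTOR list 1 of 42 rose (2.38%): Sesn1, a p53 target that restrains mTORC1 (233, 147 and 321 against 352, 542 and 612, adjusted p = 0.0447). Egr1 and Dusp26 kept their calls in each fit without 1 gland in which they were tested. Spred1 did not without NMRI gland 1 or 2 (adjusted p up to 0.071), and Sesn1 and Rps6ka3 did not in 4 and 5 of the fits (up to 0.17 and 0.097). Sesn1 (0.70, adjusted p = 0.103) and Rps6ka3 (0.16, adjusted p = 0.641) did not pass with averaged probe sets.

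Bhlha15, Xbp1 and Creb3l1 were among the 11 transcription factors that fell. The 11 also count Hif3a, for which no direction is given below. With the muscle level as a covariate 8 of the 11 that fell and 9 of the 14 that rose still passed, and the others were Atf4, Klf15, Hif3a, Runx1, Nfix, Nab2, Etv3 and Cic. Bhlha15 (MIST1), which drives secretory cell architecture, had 1360, 382 and 280 in NMRI glands and 74.6, 81.9 and 67.2 in transgenic glands (log2 difference -2.82 ± 0.58, 7.07-fold, adjusted p = 0.0109). NMRI gland 1 was far above its group, and each NMRI gland was above every transgenic gland. Of 35 bZIP factors 3 fell (8.57%, beside 4.03% of all genes) and none rose. Xbp1, the factor of the unfolded protein response that builds the ER, had 12890, 14780 and 8827 against 5880, 7179 and 3000 (2.37-fold, adjusted p = 0.0327), with gland 2 highest and gland 3 lowest in both groups. Creb3l1, an ER-resident factor activated by proteolysis, fell from 796, 430 and 544 to 278, 225 and 255 (adjusted p = 0.0156). Atf4, the factor of the integrated stress response, fell from 3169, 3245 and 2456 to 1445, 1878 and 1747 (1.75-fold, adjusted p = 0.0358). Bhlha15 passed without any one gland. Xbp1 did not pass in 4 of the 6 fits (adjusted p up to 0.13), Creb3l1 in 2 (up to 0.073) and Atf4 in 5 (up to 0.13). With averaged probe sets Bhlha15 differed by -1.66 (adjusted p = 0.0191) and Atf4 by -0.27 (adjusted p = 0.399), and with quantile normalization Xbp1 differed by -0.92 (adjusted p = 0.131) and Atf4 by -0.70 (adjusted p = 0.0757).

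The factors that define alveolar differentiation did not move as a group: of 48 tested, 3 fell (Bhlha15, Xbp1 and Creb3l1) and 2 rose (Runx1 and Nfix), with a median of 0.07. These were 10.4% in either direction, beside 6.05% of all genes that rose and 4.03% that fell. Elf5, a factor needed for alveolar development, had 7782, 7179 and 7972 in NMRI glands and 5584, 3470 and 6190 in transgenic glands. The groups did not overlap, but the difference of -0.63 ± 0.27 did not pass (adjusted p = 0.167). With the mean of all its probe sets Elf5 passed as lower (-1.31, adjusted p = 0.0459). Gata3 of luminal cells (807 ± 128 against 788 ± 201, SD, n = 3), Cebpb (2522 ± 1006 against 2776 ± 196) and Srebf1, the factor of lipid synthesis (2892 ± 1652 against 1410 ± 774), did not pass either, with adjusted p of 0.928, 0.653 and 0.268. The proliferation factor Myc had 177, 333 and 313 against 412, 348 and 460 (0.61 ± 0.30, adjusted p = 0.222). Runx1 had 59.4, 64.6 and 26.4 against 107, 193 and 151, near the floor. Its rise of 1.28 ± 0.33 did not pass without NMRI gland 1, 2 or 3 or transgenic gland 3 (adjusted p up to 0.92). With gland 3 of both groups left out, Runx1 differed by -0.21, since another of its 5 probe sets then stood for it. Its partner Cbfb rose from 867, 980 and 1071 to 1560, 2714 and 1974, and Nfix from 1500, 1718 and 2636 to 3483, 2982 and 4404. Cbfb did not pass in 4 of 6 fits without 1 gland and Nfix in 5 (up to 0.11 and 0.18). Nfix did not pass with averaged probe sets either (0.48, adjusted p = 0.134), and with the muscle level as a covariate Runx1 and Nfix had adjusted p of 0.0844 and 0.0591.

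In the other factor families few members passed. Nab2, a corepressor that binds EGR1 and is one of its targets, rose with Egr1 (19.2, 55.4 and 126 against 298, 266 and 148), a size that depends on the floor in 2 NMRI glands. Nfatc2ip, a cofactor of NFAT, rose from 198, 195 and 212 to 528, 527 and 342 (adjusted p = 0.00909), the ETS repressor Etv3 1.97-fold and the HMG-box repressor Cic 2.09-fold. The nuclear receptor Rora fell from 937, 802 and 944 to 466, 365 and 495, Klf15 from 488, 219 and 243 to 166, 75.8 and 85.3, Tead2 2.33-fold, Hoxd9 2.16-fold, Pou2f2 2.2-fold and Arid5a 2.21-fold. The direction of Hif3a changed with the probe set that stood for it, so none is given. Of these genes Nfatc2ip and Tead2 passed without any one gland. Rora did not without any single gland, Klf15, Cic, Etv3 and Hoxd9 did not in 5 of the 6 fits, Nab2 and Arid5a in 4, and Pou2f2 without transgenic gland 1 or 3 (adjusted p up to 0.2). Pou2f2 was not tested in the fits without 1 NMRI gland. Averaging probe sets ended the calls of Nfatc2ip (0.59, adjusted p = 0.053), Etv3 (0.29, adjusted p = 0.348) and Rora (-0.90, adjusted p = 0.0551).

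Of 127 chromatin regulators and coactivators 6 rose (4.72%, below the 6.05% of all genes that rose) and none fell. The median was 0.19 (10 rose and 4 fell with the replicate block). Brd8, a bromodomain subunit of the NuA4 acetyltransferase, had 269, 477 and 169 against 996, 837 and 1184 (3.57-fold, adjusted p = 0.00986), and Mbd4, a glycosylase that removes mismatched bases at CpG sites, 64.1, 68.8 and 60.6 against 191, 282 and 174 (3.27-fold, adjusted p = 0.00363). Both passed without any one gland, and with averaged probe sets Brd8 differed by 1.01 (adjusted p = 0.0255). Hmgn3, Rbbp7, Ing2 and Cbx5 rose by 0.94 to 1.30, and each lost its call in 4 or 5 of the 6 fits (adjusted p up to 0.17).

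**Figure D5:**
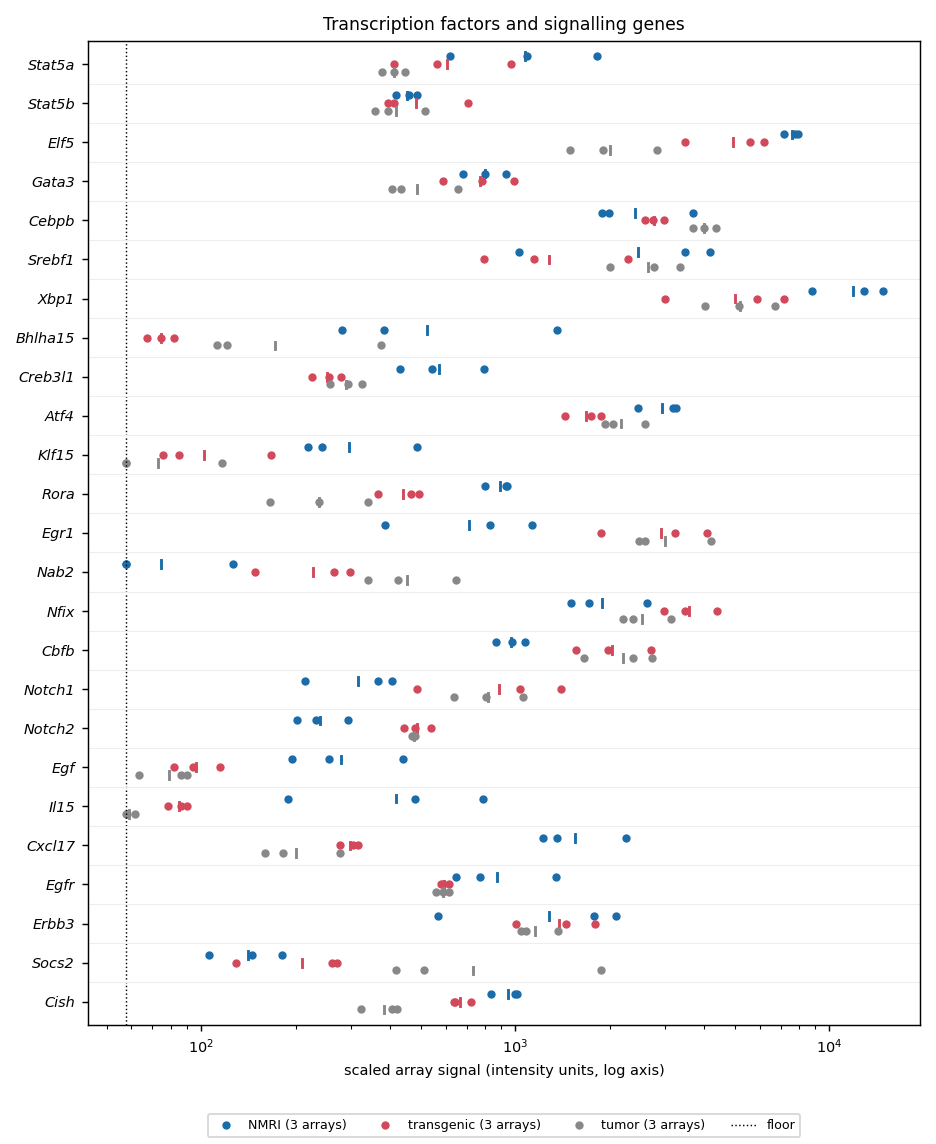
Scaled signal (log axis) of transcription factors and signalling genes in the 3 NMRI glands (blue), 3 transgenic glands (red) and 3 tumors (grey). Points are arrays, ticks are means of the floored log2 values, and the dotted line is the floor of 57.5. Red and blue points overlap for Stat5a, Stat5b, Gata3 and Cebpb and lie apart for Bhlha15, Xbp1, Egr1 and Cxcl17.

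The 12 largest falls outside the cell cycle and casein lists were those of Cel, Lao1, Cidea, Gjb6 and Slc34a2, given above, and of 7 other genes. Saa2 and Saa1, serum amyloid A proteins, had 6535, 7096 and 7366 against 32.3, 159 and 30.8 and 10940, 9700 and 12260 against 102, 425 and 33.9. Both are near-identical copies whose probes may cross-hybridise, and their folds of 86.6 and 80.5 depend on the floor. Olah, the thioesterase that ends fatty acid synthesis at medium chain length in the mammary gland, had 5395, 3999 and 1500 against 338, 4.14 and 43.9. Sftpd, a collectin of the innate defence, had 8208, 9100 and 10960 against 805, 1036 and 254 (15.7-fold). Chrdl2, a secreted BMP inhibitor, fell 18.8-fold, the collagen gene Col9a1 14.2-fold, and Gldc, the decarboxylase of the glycine cleavage system, 12.4-fold with 2 transgenic glands at the floor. All 7 passed without any one gland (limma adjusted p up to 0.023). Col9a1 differed by -2.85 with averaged probe sets in place of -3.83.

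Among the 12 largest rises outside the lists, several were of genes known from DNA replication, repair or mitosis that the cell cycle list did not hold. Fignl1, a AAA ATPase of recombination repair, had 21.7, 3.93 and 11.2 in NMRI glands, all under the floor, against 620, 406 and 858, and was at least 10.4-fold higher (adjusted p = 2.87e-05). Dnajc9, a histone chaperone, had 122, 122 and 265 against 1326, 1097 and 1408 (8.04-fold). Pclaf, the PCNA-associated factor, rose from 361, 288 and 280 to 2132, 1999 and 1476, Ercc6l, a helicase at mitotic DNA bridges, 6.65-fold, and Lrr1, which removes the replicative helicase from chromatin, 7.12-fold. Ercc6l and Lrr1 were each at the floor in 1 NMRI gland. Fxyd6, a regulator of the sodium-potassium pump, had all NMRI glands under the floor (6.17, 3.93 and 35.2 against 350, 713 and 291) and was at least 7.26-fold higher. The ubiquitin ligase Trim59 rose 5.94-fold with 2 NMRI glands at the floor. H2-Eb1, a class II antigen presentation gene, had 247, 212 and 405 against 1285, 1983 and 1439 (5.57-fold, adjusted p = 0.0258), beside the macrophage and B cell marker levels given above, and lost its call in 5 of the 6 fits without 1 gland (up to 0.097). Slfn8 rose 5.5-fold. The rises of Fignl1, Pclaf and Lrr1 with averaged probe sets were 1.47, 1.30 and 1.37 on the log2 scale in place of 3.38, 2.58 and 2.83, and all 3 passed.

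Transport into and out of the nucleus and RNA splicing were grouped after these rises were seen. Of 24 nuclear pore proteins 10 rose and none fell, with a median of 0.84, and 6 to 10 rose in the fits without 1 gland. Nup133, a scaffold subunit of the outer ring, had 108, 104 and 120 against 662, 591 and 634 (rise of 2.51 ± 0.25, adjusted p = 8.97e-05). Its ring partner Nup107 had 26.1, 13.6 and 124 against 576, 277 and 384, and Nup62 of the central channel 328, 224 and 421 against 1149, 1003 and 912. Of 25 importins, exportins and Ran regulators 5 rose, among them the export receptor Xpo1 (539, 437 and 521 against 1448, 1177 and 1292) and the import receptor Kpnb1 (572, 254 and 509 against 1420, 925 and 1037). Of 56 snRNP, Lsm and hnRNP proteins 15 rose and none fell, with a median of 0.55. Snrnp40, a subunit of the U5 particle, had 195, 134 and 92.2 against 982, 1125 and 397, and Hnrnpm 413, 409 and 429 against 1157, 1191 and 1268. Nup133, Nup107, Nup62, Xpo1 and Hnrnpm passed without any one gland, Kpnb1 did not without NMRI gland 2 or transgenic gland 1, and Snrnp40 did not without transgenic gland 1 (0.051). Nup133 rose by 1.15 and Snrnp40 by 1.90 with averaged probe sets, and both passed.

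The glands of one group did not move alike in every set. Among the 37 secretion genes that fell, transgenic gland 1 had the highest signal of its group in 20 and gland 3 the lowest in 22. Among the 29 transport genes that fell, gland 1 was highest in 16 and gland 2 lowest in 15. In the tumors, whose mice carry the same transgene, 21 of the 37 secretion genes had a mean log2 signal below that of the transgenic glands and 16 lay between transgenic and NMRI glands. Wap had 96.2, 119 and 90.3 in tumors 1 to 3, and Glycam1 14.1, 81.8 and 3.41. Of the 29 transport genes 16 were lower in tumors than in transgenic glands. Slc2a1 was not, with 1064, 1818 and 1101 in tumors, and neither was Slc20a1 with 1212, 1112 and 590. Egr1 had 4208, 2482 and 2581 in tumors, and Nup133 had 641, 482 and 887. These tumor values are given without a test. The labels give no lactation day for the tumors. The ratio of 3-prime to 5-prime Gapdh signal was 5.63, 0.98 and 0.97 in tumors 1 to 3. In transgenic glands it was 10.7, 2.49 and 22.5. The part of stage and RNA integrity in these levels was not tested.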

How the data were processed

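Single-color arrays with 22690 probe sets measured RNA of 12 samples, of which the 6 lactating glands are compared here. The deposited values are linear intensity signals from the authors' MAS5 run, per the submitters' processing notes. The sources used here do not give its version or scaling target. The raw scans were not analysed here. The number of arrays limits the precision. On single arrays 67.7% to 72.6% of probe sets exceeded the floor.

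Arrays were scaled to a common mean (trimming 2% of probe sets at each end), signals were floored at the pooled 30th percentile, and log2 was taken. The 64 control probe sets and those naming several genes (691) or none (1555) were left out. The brightest probe set stood for each of 12393 genes, and 7898 genes with at least 3 of the 9 tissue arrays above the pooled median of 139.9 were tested with limma 3.58.1 (lmFit, eBayes with trend, two-sided) in R 4.3.3, with NMRI glands, transgenic glands and tumors as groups. Counts over a list are of its tested members. A gene above the pooled median only in NMRI glands could enter only as lower. Such genes among those named include Gjb6, Aqp3, Atp2b2, Il15, Egf, Drd4, Pou2f2 and Dusp26. A gene below the pooled median in every NMRI gland and above it in every transgenic gland could enter only as higher. Named genes of this kind include Fignl1, Fxyd6, Trim59, Slfn8, Ercc6l, Lrr1, Syce2, Nup133, Mbd4, Panx1, Abcc3 and Nab2. Ephb3, Trpc2 and Runx1 were also below it in every NMRI gland and entered through some transgenic glands and tumors. A fold against a group at the floor on every array is a lower bound. The fit was tested on simulated data.

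Members and gene lists were chosen with earlier results of these data known, so counts over a list are descriptions. Of the signalling lists, 1 is counted in the totals and not reported on its own here. Named were, outside the cell cycle and casein lists and among genes that passed without overlap between groups and with no probe set passing in the opposite direction, the 12 largest rises and falls and up to 3 each way per list, plus genes fixed by name. Other genes were named after their values were seen. The labels name no pairs and do not say what their numbers stand for. Deviations from the group means correlated at 0.22, 0.37 and 0.37 for equal numbers and at -0.34 to 0.06 for unequal ones. The replicate block used the 6 glands and took equal numbers as pairs, so its results rest on this assumed pairing. Promoter sequences came from RefSeq. Alternatives covered scaling, floor, filter, probe sets, covariates and leaving out glands.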

Additional observations from a re-analysis of the deposited data

How the results depend on the processing

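Outside the cell cycle and casein lists 309 genes were higher and 316 lower. These counts moved by less than 1.5 times under quantile normalization, unscaled signals, another floor or filter, averaged probe sets and the glands alone. They did so too with no intensity trend and with the Gapdh ratio or muscle level as covariate. The genes themselves were less stable than the counts. Of the 309 and 316 genes, the fewest passed again with no filter on dim genes (195 and 197) and with averaged probe sets (202 and 226). With the muscle level 239 and 246 passed again, and with the Gapdh ratio 309 and 314. With the replicate block 502 were higher and 508 lower, sharing 286 and 307 of the 309 and 316. Leaving out 1 gland gave 132 to 272 higher and 113 to 291 lower. With gland 3 of both groups left out, an alternative chosen after seeing the data, 208 were higher and 178 lower. Of the 114 named genes, 36 lost their call with no filter on dim genes, among them Xbp1, Bhlha15, Muc1, Fabp3, Edem2, Orai1, Atp2b2, Egr1, Notch1, Ltbp2, Ltbp3, Arrb1, Arrb2, Rora, Runx1, Cbfb, Sesn1, H2-Eb1, Snrnp40 and Klf15, and 24 lost it with averaged probe sets (values beside the genes described). Quantile normalization ended 11 calls (Anxa2, Atf4, Ccn1, Etv3, Fabp3, Hmgn3, Ltbp2, Ltbp3, Sesn1, Stxbp3 and Xbp1), unscaled signals 9 (Adcy9, Atf4, Drd4, Fgf1, Hif3a, Hoxd9, Il2rb, Klf15 and Rora), and the glands alone 11 (Atf4, Ccn1, Etv3, Fgf1, Il2rb, Ltbp2, Nfix, Notch1, Rps6ka3, Sesn1 and Stxbp3). A floor at the 15th percentile ended 10 (Anxa2, Ccn1, Drd4, Dusp26, Hoxd9, Il2rb, Klf15, Nfix, Panx1 and Rgs11), no floor 5 (Anxa2, Il2rb, Klf15, Panx1 and Rgs11), no intensity trend 4 (Anxa2, Atf4, Nfix and Xbp1) and the muscle level 15 (named beside their groups). Among the named genes, the replicate block changed the calls of Stat5a and Fgf1 and no other call among those it tested. Hif3a differed by 0.04 with averaged probe sets, by 1.07, 0.66 and 1.26 without NMRI glands 1, 2 and 3 (from -0.93 to 1.26 over all fits without 1 gland), and by 1.66 without gland 3 of both groups, since another of its probe sets then stood for it in the latter fits. Runx1 differed by -0.21 without gland 3 of both groups, where another of its probe sets stood for it as well. On the probe set described above, NMRI glands 1 and 2 had 59.4 and 64.6 and transgenic glands 1 and 2 had 107 and 193. Signals near the floor limit what can be said of genes that are dim in both groups.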
